A study of Mus musculus with 6 samples.

Results

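The genes described here are 10 mouse genes of mucus production: the membrane mucin genes Muc1, Muc4 and Muc16, the gel-forming mucin genes Muc5ac and Muc5b, the tetraspanin gene Tspan1, the transcription factor genes Spdef, Foxa3 and Creb3l1, and Agr2. They were chosen by name from the count table, which holds 23284 gene rows. Of the 10, 9 had a row, and Muc16 was not analysed here. The measurements came from RNA sequencing of epithelium taken from the esophagus of mouse embryos at E12.5. One group was homozygous for Trp63-CreERT2, an allele that the labels call a knockout of Trp63 (p63KO, 3 samples), and the other held littermate controls (3 samples), titled wild type. The controls' own alleles are given no further, and the labels do not say how many embryos went into a sample, so the p-values measure only the spread between these samples.

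Mucins are proteins whose long stretches of serine and threonine carry dense chains of O-linked sugars. Membrane mucins stay anchored in the apical membrane, whereas gel-forming mucins are secreted, link into polymers and make up mucus. The forebear of the esophageal lining is a simple columnar epithelium that becomes stratified and squamous under the transcription factor p63, while mucus-making columnar cells line the neighbouring airway and stomach. In goblet cells, the ETS factor Spdef drives secretory differentiation, Foxa3 acts beside it, and Agr2 is a resident of the endoplasmic reticulum (ER) needed for the folding of mucins.

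Total counts lay between 13335328 and 20093838 per library, so that 1 count was worth 0.0511 to 0.0743 CPM (each count divided by the library's TMM-adjusted size and set to a common depth). Trp63 checked the labels: it was at 550.6 to 674.1 CPM in the control libraries and at 62.2 to 76.7 CPM in p63KO. The epithelial marker Epcam averaged 851.2 ± 6.61 CPM in control against 947.3 ± 5.13 CPM in the knockout (SD, n = 3 each). Of 9 pan-epithelial markers, 5 rose and 2 fell (Cdh1 by 0.40 and Cldn4 by 0.43 on the log2 scale). The remaining 2 did not pass, Epcam among them (log2 fold change 0.15, SE 0.05, edgeR adjusted p = 0.057). Over all tested genes, 15.3% were called higher and 14.3% lower (edgeR adjusted p under 0.05). The summed level of the 9 markers was 3646 to 3920 CPM in control and 4046 to 4195 CPM in p63KO. Control replicate 3 stood apart through genes of gut epithelium: it held 919 counts of Cdx2, a factor of intestinal epithelium, against 0 and 2 in the other control libraries and 0 or 1 in each p63KO library. The summed level of 14 stomach and intestine markers reached 110.7 CPM in that library, but 2.60 and 3.28 CPM in the remaining controls, and 8.09 to 13.4 CPM in p63KO. Gkn1 was at 0 in every library and Gkn3, Fabp1 and Cldn18 were at 0 in every library but control replicate 3. Where leaving that library out changes a call or moves a value by over 1.5 times, the value without it is given too.

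Both measured membrane mucins, both gel-forming mucins, Tspan1, Spdef and Foxa3 rose in p63KO, by 7.98- to 21.4-fold, while Creb3l1 and Agr2 did not pass the test. That is 7 of the 9 measured genes, where 15.3% of all 13849 tested genes were called higher and 14.3% lower (edgeR quasi-likelihood test, Benjamini-Hochberg adjusted p under 0.05). The groups did not overlap for the same 7 genes, against 21.8% of all tested genes with every p63KO library above every control. The median log2 fold change of the 9 genes was 3.19, beside -0.01 over all tested genes. These counts describe the list: Muc5b, Spdef and Foxa3 passed the filter on low counts only through their p63KO libraries. In bulk RNA, a change in the number of cells of a type and a change in RNA per cell cannot be told apart.

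**Figure D1:**
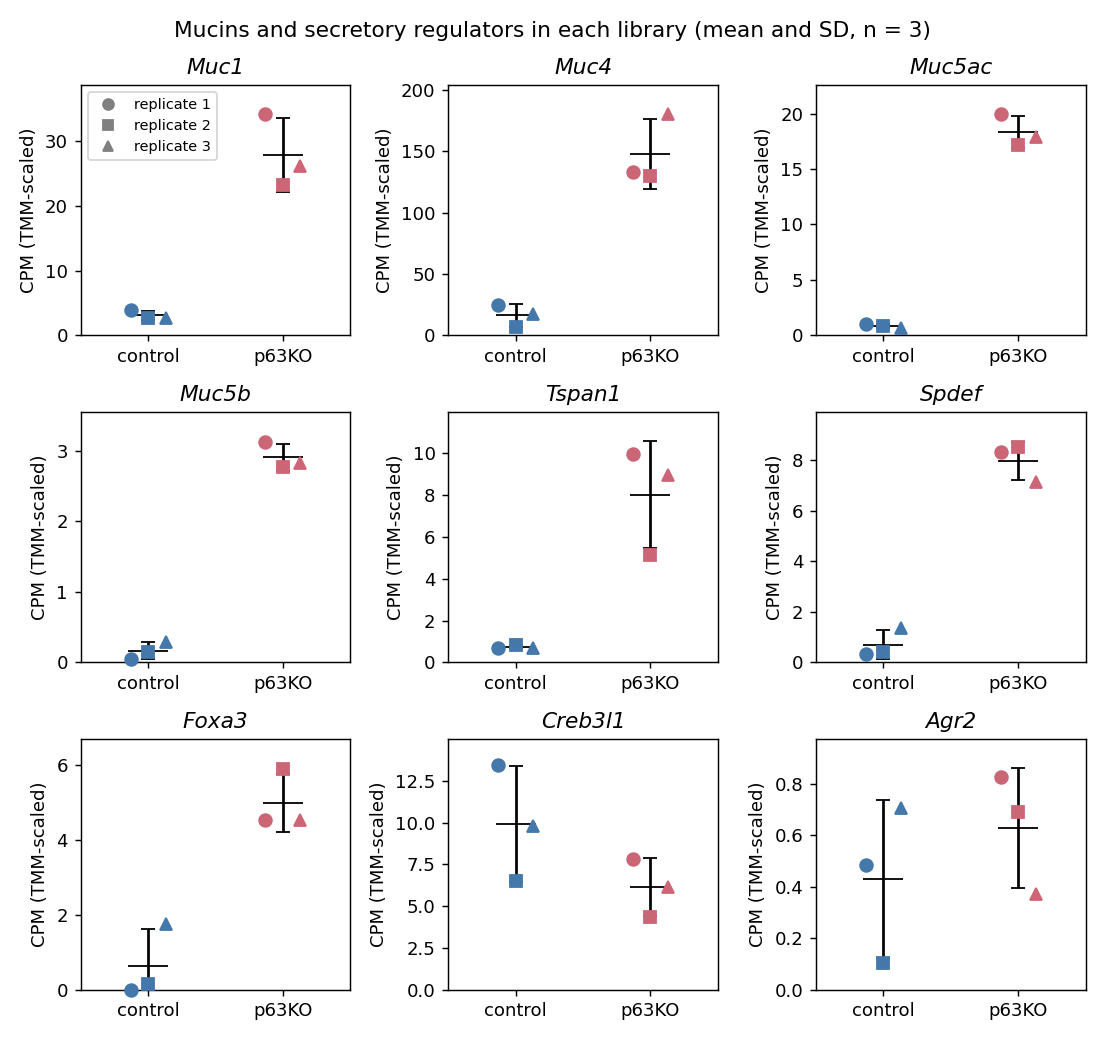
TMM-scaled CPM of the 9 measured genes in each library (circle, square and triangle for replicates 1, 2 and 3), with the group mean and SD (n = 3), each panel on its own linear axis from 0. The 3 p63KO libraries lie above the 3 controls for 7 genes, from Muc1 to Foxa3, while the groups overlap for Creb3l1 and Agr2.

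Muc1, a membrane mucin with a signalling cytoplasmic tail, had 73, 53 and 45 counts in the control libraries and 581, 335 and 352 in p63KO. Scaled for depth, these were 3.92, 2.71 and 2.65 CPM against 34.3, 23.2 and 26.1 CPM. The lowest p63KO library was thus far above the highest control. Its log2 fold change was 3.17 (SE 0.21, edgeR adjusted p = 5.9e-06, higher in 3 of 3 p63KO libraries), about 9.0-fold. The genes beside Muc1 in the RefSeq order, Thbs3 and Trim46, also rose (log2 fold changes 1.33, SE 0.16, and 1.86, SE 0.26). Their RefSeq models do not overlap Muc1, but the sources name neither the annotation nor the strand setting behind the counts, and a share of reads between these close neighbours was not tested.

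Muc4, a large membrane mucin that binds the receptor ErbB2, had the most counts of the 9 genes. It was at 24.8, 6.54 and 17.5 CPM in control and at 133.2, 129.7 and 180.5 CPM in p63KO. The controls spread more for Muc4 than the p63KO libraries did in proportion, with control replicate 2 the lowest. The log2 fold change was 3.19 (SE 0.36, edgeR adjusted p = 0.00015), and with 1 library left out it ranged from 2.80 to 3.63. Over the 6 libraries, the 3 genes whose log2 CPM followed Muc4 most closely were Fgf3 (Pearson r = 0.999), Prickle1 (0.998) and Lifr (0.995), a likeness that includes the difference between the groups. Fgf3 averaged 0.148 CPM in control and 0.876 CPM in p63KO, Prickle1 7.79 and 20.1 CPM, and Lifr 19.9 and 60.3 CPM. These 3 genes were picked for the highest r among the tested genes. The control mean of Fgf3 lay under the level of 3 counts in a control library (0.153 to 0.177 CPM), so its r rests partly on levels near 0.

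Muc20, a small membrane mucin that is the next gene to Muc4 in RefSeq, belongs to the list of other mucins. It had 11, 2 and 6 counts in control and 53, 56 and 46 in p63KO, and passed the filter on low counts only through p63KO. The groups did not overlap, and the log2 fold change was 3.30 (SE 0.46, edgeR adjusted p = 0.00056). The depth-scaled ratio of summed counts was 10.04, and it was 15.8 without control replicate 1 and 7.24 without control replicate 2. The RefSeq models of Muc4 and Muc20 overlap, so reads of the shared stretch cannot be assigned with certainty.

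Of the gel-forming mucins, Muc5ac, the main secreted mucin of stomach surface and airway goblet cells, had 19, 17 and 11 counts in control and 338, 248 and 241 in p63KO. That was 1.02, 0.868 and 0.648 CPM against 19.9, 17.2 and 17.9 CPM, so every p63KO library was far above every control. Muc5ac had a log2 fold change of 4.42 (SE 0.20, edgeR adjusted p = 7.1e-07), about 21.4-fold, and it stayed between 4.27 and 4.57 with 1 library left out.

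Muc5b, the other gel-forming mucin of airways and glands, lies next to Muc5ac in RefSeq. It had 1, 3 and 5 counts in control and 53, 40 and 38 in p63KO, or 0.167 ± 0.121 CPM against 2.91 ± 0.193 CPM (SD, n = 3 per group). The control libraries were near 0 and the p63KO libraries agreed closely with each other. The log2 fold change was 4.09 (SE 0.45, edgeR adjusted p = 0.00013), and 4.70 without control replicate 3. The 9 control counts against 131 in p63KO gave a depth-scaled ratio of 17.9, with an exact 95% interval of 9.15 to 40.0. This and the other intervals of count ratios cover counting error only, and libraries within a group differed by more than sampling noise.

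Several other mucin genes were low in both groups. Muc6, a gel-forming mucin of gastric glands, had 8, 16 and 17 counts in control and 14, 7 and 1 in p63KO, and did not pass (log2 fold change -0.63, SE 0.64, edgeR adjusted p = 0.52). Muc2, the intestinal gel-forming mucin between Muc6 and Muc5ac, was not analysed here. Of 14 other mucin genes listed, 7 had a row and 2 were tested, of which Muc20 rose and Muc6 did not pass. Over all tested genes, 15.3% were called higher and 14.3% lower.

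Among the mucins that the filter on low counts left untested, Muc13, a membrane mucin of the intestine, went the other way. It had 8, 10 and 44 counts in control and 1, 0 and 0 in p63KO, a ratio of 0.0198 (exact 95% interval 0.000495 to 0.115). Without control replicate 3 the ratio was 0.0473 (0.00114 to 0.300). Muc19, a gel-forming mucin of salivary glands, had 1 count in control and 14 in p63KO, a ratio of 17.2 (2.62 to 728.3), and the single control count was in control replicate 2. Muc15 had 0, 0 and 8 counts in control and 2, 2 and 1 in p63KO, so that all its control counts were in control replicate 3. Mucl1 was at 0 in every library.

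Tspan1, a tetraspanin membrane protein of secretory epithelia, had 13, 16 and 12 counts in control and 169, 74 and 121 in p63KO. Scaled for depth it was at 0.698, 0.817 and 0.707 CPM against 9.97, 5.13 and 8.99 CPM. The controls were nearly level, and p63KO replicate 2 was the lowest of its group. Tspan1 had a log2 fold change of 3.42 (SE 0.31, edgeR adjusted p = 4.3e-05). Among 22 other tetraspanin genes tested, 7 rose, 4 fell and 11 did not pass, where 15.3% of all tested genes were called higher and 14.3% lower. Their median was 0.06, with no rise as large as that of Tspan1, and without control replicate 3, 8 rose and 5 fell. Tspan11 rose the most of these, by 1.10 on the log2 scale (SE 0.30). Cd9 rose by 0.80 and Tspan12 by 0.65, while Tspan9 fell by 0.91 and Cd81 by 0.61. Tspan3, the member with the most counts, was at -0.04 (SE 0.06). Tspan8 had 753 counts in control replicate 3 and between 7 and 29 in each other library.

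**Figure D2:**
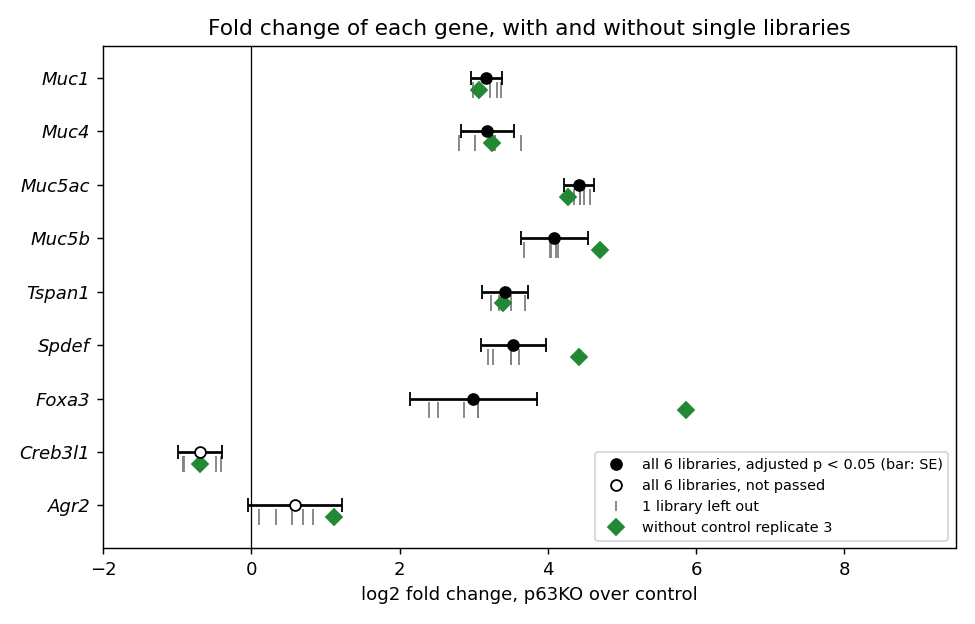
Log2 fold change of p63KO over control for each gene (points, bars are SE, filled where the edgeR adjusted p was under 0.05), with the values after leaving out 1 library (ticks) and after leaving out control replicate 3 (diamonds). Foxa3 moved from 3.0 to 5.86 and Spdef from 3.54 to 4.42 without control replicate 3, while Muc1, Muc4, Muc5ac and Tspan1 stayed near their values.

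The transcription factor genes did not move as one. Spdef, the ETS factor of goblet cells, had 6, 8 and 23 counts in control and 141, 123 and 96 in p63KO. It was at 0.322, 0.409 and 1.35 CPM against 8.32, 8.52 and 7.13 CPM. Control replicate 3 was the highest control and still below every p63KO library. The log2 fold change was 3.54 (SE 0.44, edgeR adjusted p = 0.00029), and 4.42 without control replicate 3 (edgeR adjusted p = 4.7e-06).

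Foxa3, a forkhead factor of endoderm and goblet cells, had 0, 3 and 30 counts in control and 77, 85 and 61 in p63KO. Nearly all control counts came from control replicate 3, at 1.77 CPM, against 4.53 to 5.89 CPM in p63KO. The log2 fold change was 3.0 (SE 0.85, edgeR adjusted p = 0.027). The call was lost with DESeq2 (adjusted p = 0.15), with robust dispersions (edgeR adjusted p = 0.095), and when control replicate 2 (edgeR adjusted p = 0.061) or any p63KO library (edgeR adjusted p = 0.068 to 0.072) was left out. Leaving out control replicate 1 gave 2.40. Without control replicate 3 it was 5.86 (edgeR adjusted p = 5.5e-05), and 3 control counts against 223 gave a ratio of 63.3 (exact 95% interval 21.4 to 309.3).

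Gut genes were high in control replicate 3, which was also the highest control for Foxa3 and Spdef. Hnf4a, a nuclear receptor of gut epithelium and liver, had 826 counts there, 0 in each other control and 4 to 19 in p63KO. Gata4 had 1187 counts there and 0 to 4 in each other library, and Tff3, a peptide secreted with intestinal mucus, had 25 there and 0 in each other library. In p63KO, Cdx2 had at most 1 count, whereas Vil1, a protein of gut microvilli, had 120, 59 and 53 counts, against 8 and 9 in control replicates 1 and 2 and 354 in control replicate 3. The part of gut genes in the levels of Foxa3 and Spdef was not tested in either group.

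**Figure D3:**
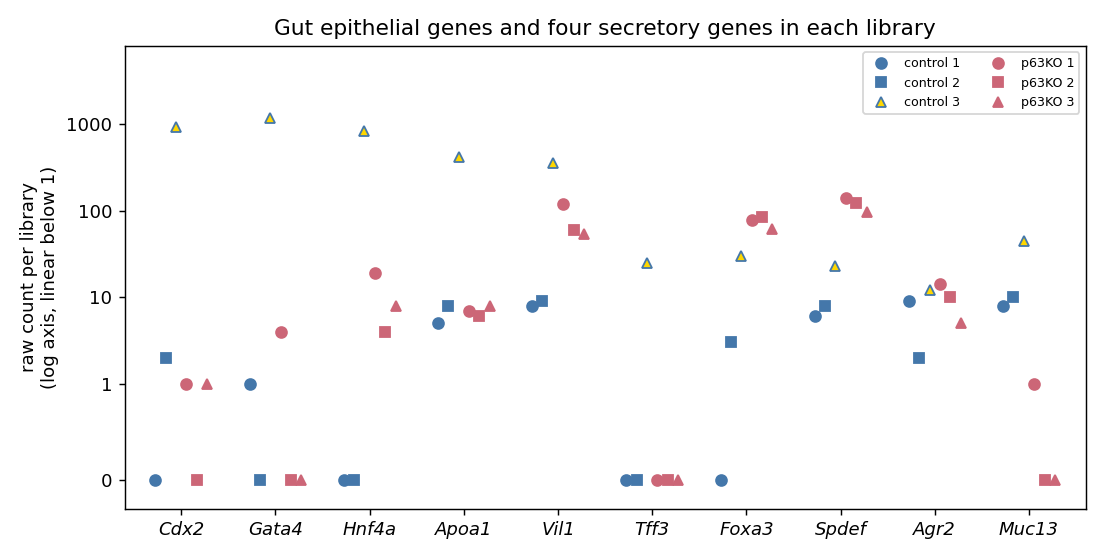
Raw counts per library of 6 gut epithelial genes and of Foxa3, Spdef, Agr2 and Muc13 (log axis, linear below 1), with control replicate 3 in yellow. Control replicate 3 lies above the other 5 libraries for the 6 gut genes and Muc13, and above the other controls but below p63KO for Foxa3 and Spdef.

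Creb3l1, an ER-anchored factor that turns on genes of protein secretion, was the 1 measured gene with a lower mean in p63KO. It had 250, 127 and 166 counts in control and 133, 63 and 83 in p63KO, or 13.4, 6.49 and 9.77 CPM against 7.85, 4.36 and 6.16 CPM. The groups overlapped, since control replicate 2 lay below p63KO replicate 1. Creb3l1 had a log2 fold change of -0.69 (SE 0.30, 95% interval -1.36 to -0.02, edgeR adjusted p = 0.12). Without control replicate 2 it was -0.92 (edgeR adjusted p = 0.032). Its paralogs Creb3 (0.29, SE 0.10), Creb3l2 (0.33, SE 0.12) and Creb3l4 (-0.19, SE 0.18) did not pass either.

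Agr2 was near the floor in both groups, with 9, 2 and 12 counts in control and 14, 10 and 5 in p63KO. The groups overlapped, at 0.102 to 0.707 CPM and 0.371 to 0.826 CPM. For Agr2 the log2 fold change was 0.59 (SE 0.64, 95% interval -0.85 to 2.03, edgeR adjusted p = 0.55). The interval spans 0, and its upper bound lies below the fitted change of each of the 7 genes that rose. It overlaps the 95% interval of Foxa3 (1.07 to 4.93), however. The fold change of Agr2 ranged from 0.11 to 1.12 on the log2 scale with 1 library left out. Agr3, its neighbour and paralog, had 1 count in each group.

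Per kilobase of exon (GENCODE M21 union exon length, which may differ from the annotation counted), the order of the levels changed between the groups. In control, Creb3l1 was the highest at 3.80 ± 1.33 CPM per kilobase, above Muc4 (1.39 ± 0.782) and Muc1 (1.32 ± 0.306), whose ranges overlapped each other. In p63KO, Muc4 (12.6 ± 2.41) and Muc1 (11.9 ± 2.45) were the highest and again overlapped. Next came Spdef (3.47 ± 0.326), Tspan1 (3.45 ± 1.10), Foxa3 (2.45 ± 0.383), Creb3l1 (2.35 ± 0.670) and Muc5ac (1.71 ± 0.134), of which each overlapped the next. Agr2 (0.488 ± 0.181) and Muc5b (0.194 ± 0.0129 CPM per kilobase) were the lowest.

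RefSeq (GRCm38) gave a promoter window for 7 of the 10 genes, and the 250 bases before the start site were searched on both strands for 4 motifs. These were the forkhead motif TGTTTAC, the CREB/ATF motif TGACGT, the E-box CAGGTG, and a p53 family pattern of 2 CATG cores with 6 bases between them. Among all 32851 windows of this length, 3.17%, 6.47%, 17.2% and 0.49% hold them in that order. The E-box was in the windows of Muc1, Tspan1 and Foxa3, and TGACGT in that of Spdef, while those of Muc4, Muc16 and Agr2 held none of the 4. The windows printed here are those of the 4 genes that rose and hold a match, with the matched letters in capitals, printed from 5′ to 3′ on the gene's strand. They are chr3:89228806-89229055 (+ strand) for Muc1, chr4:116167599-116167848 (- strand) for Tspan1, chr7:19023540-19023789 (- strand) for Foxa3 and chr17:27728952-27729201 (- strand) for Spdef. A match is a description of letters and was not tested as a binding site.
Muc1: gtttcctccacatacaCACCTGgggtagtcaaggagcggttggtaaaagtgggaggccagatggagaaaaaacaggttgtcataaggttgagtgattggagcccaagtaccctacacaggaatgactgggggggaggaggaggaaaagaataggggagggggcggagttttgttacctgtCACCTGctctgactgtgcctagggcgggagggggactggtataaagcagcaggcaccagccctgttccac
Tspan1: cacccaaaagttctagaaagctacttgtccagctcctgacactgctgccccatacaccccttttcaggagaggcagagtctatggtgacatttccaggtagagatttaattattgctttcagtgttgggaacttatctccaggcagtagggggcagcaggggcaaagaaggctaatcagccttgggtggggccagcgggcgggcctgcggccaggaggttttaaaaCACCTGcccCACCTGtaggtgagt
Foxa3: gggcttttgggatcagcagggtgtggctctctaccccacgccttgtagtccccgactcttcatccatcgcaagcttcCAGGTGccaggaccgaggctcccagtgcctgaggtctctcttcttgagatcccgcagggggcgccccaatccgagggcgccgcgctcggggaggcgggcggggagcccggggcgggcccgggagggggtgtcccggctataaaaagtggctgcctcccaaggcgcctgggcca
Spdef: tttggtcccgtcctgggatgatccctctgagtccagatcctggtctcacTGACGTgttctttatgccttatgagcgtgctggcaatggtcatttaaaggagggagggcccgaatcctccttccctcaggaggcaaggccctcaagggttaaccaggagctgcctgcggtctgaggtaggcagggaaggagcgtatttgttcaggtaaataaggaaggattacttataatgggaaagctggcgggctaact
The Muc1 matches (CACCTG, the E-box on the other strand) begin 234 and 70 bases before the start site, and those of Tspan1 24 and 15 bases before it, separated by 3 bases. In Foxa3 the E-box begins 173 bases before the start site, and in Spdef the TGACGT begins 201 bases before it.

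The enzymes that build mucin sugars were measured beside the mucins. Of 25 tested O-glycosylation genes (38 listed), 14 rose, 1 fell and 10 did not pass, where 15.3% of all tested genes were called higher and 14.3% lower. The median log2 fold change was 0.45, beside -0.01 over all tested genes. Galnt2, the member with the most counts, which adds the first sugar, went from 215.3 ± 14.9 to 293.3 ± 26.3 CPM, and Galnt1, Galnt3 and Galnt4 also rose. C1galt1, which extends the chain to core 1, and its chaperone C1galt1c1 rose by 0.60 and 0.68 on the log2 scale. Gcnt3, the mucin-type branching enzyme, rose from a mean of 1.99 ± 0.809 to one of 7.99 ± 1.07 CPM (log2 fold change 2.01, SE 0.30). Galnt9 rose the most of the tested list (2.68, SE 0.53), from 6, 2 and 3 counts in control to 29, 20 and 11 in p63KO. It passed the filter on low counts only through its p63KO libraries. St6galnac2, a sialyltransferase, rose by 1.19 and B4galt1, a galactosyltransferase, by 0.50. The sialyltransferase St3gal4 was the member that fell (-0.65, SE 0.18), a call lost without control replicate 1 or p63KO replicate 1 or 3, and 2 members fell without control replicate 2. The number that rose was 13 or 14 with any 1 library left out.

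**Figure D4:**
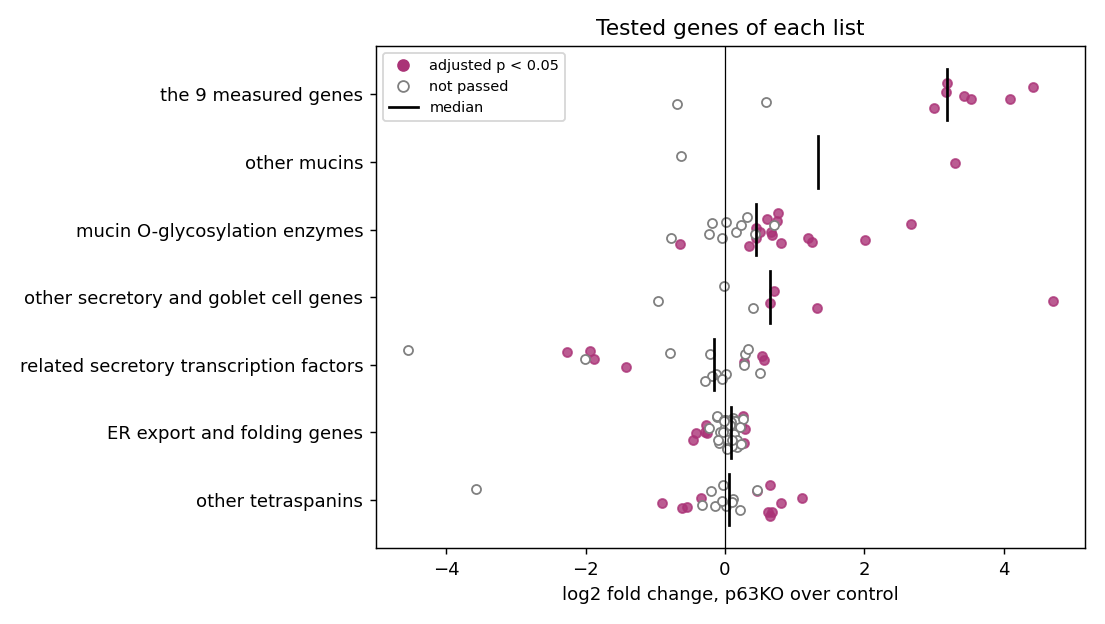
Log2 fold change of p63KO over control for the tested genes of each list (filled where the edgeR adjusted p was under 0.05, lines are medians). The 9 measured genes have a median of 3.19, the O-glycosylation enzymes 0.45 and the ER export and folding genes 0.08.

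Many products of mature goblet and club cells were at or near 0. Of 33 other secretory and goblet cell genes listed, 30 had a row and 7 were tested. Of these, 4 rose and 3 did not pass (5 of 8 tested rose without control replicate 3). Over all tested genes, 15.3% were called higher and 14.3% lower. Scgb1a1, Tff1, Zg16, Bpifa1, Aqp5 and Reg3g were at 0 in every library. Gfi1, a zinc finger repressor used in secretory and in neuroendocrine lineages, rose from a mean of 0.343 ± 0.123 to one of 9.19 ± 1.15 CPM. Its log2 fold change was 4.71 (SE 0.30), and it passed the filter on low counts only through its p63KO libraries. Krt7, a keratin of simple epithelia, Wfdc2, a secreted protease inhibitor, and Cftr, the chloride channel, rose by 1.32, 0.64 and 0.70. Atoh1, the bHLH factor at the head of the intestinal secretory lineage, had no count in control and 13, 4 and 6 counts in p63KO. With 3 counts over the group as the floor for control, it was at least 9.43-fold higher, and at least 6.09-fold without control replicate 2, both before counting error. Fcgbp, a mucus protein gene, and Clca2 were at 0.41 (SE 0.29) and -0.02 (SE 0.64), neither past the test. Bpifb1, a secreted airway protein gene, did not pass either, at -0.96 (SE 0.45, edgeR adjusted p = 0.15). Ltf, the lactoferrin gene, had 4, 4 and 9 counts in control and 0 in every p63KO library, too few to test. Tff2, likewise untested, went the other way, with 0, 1 and 2 counts in control and 3, 6 and 17 in p63KO. Its ratio was 10.7 (exact 95% interval 3.27 to 55.0), 22.1 without control replicate 3 and 5.27 without p63KO replicate 3.

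Of 20 tested transcription factors related to Spdef, Foxa3 and Creb3l1, 3 rose, 4 fell and 13 did not pass, shares near or little above those of all tested genes (15.3% higher and 14.3% lower). Foxa2, the forkhead factor of foregut endoderm and the member with the most counts, rose by 0.56 on the log2 scale (SE 0.09), and Foxa1 was at -0.13 (SE 0.12). Atf6, an ER stress factor, and Klf4 rose by 0.53 and 0.27. The ETS genes Elf5 and Ehf fell by 1.93 and 1.42 and Sox9 by 2.26, while the ETS gene Elf3 was at 0.27 (SE 0.16). Without control replicate 2, 2 of these factors rose and 7 fell.

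Of 44 tested genes of the general machinery of ER export and folding, 7 rose, 5 fell and 32 did not pass, and the median was 0.08. These shares are near those of all tested genes, of which 15.3% were called higher and 14.3% lower. No change reached 2-fold: Srp72 was at -0.29 (SE 0.05), Srp14 at 0.29 (SE 0.06), Sec23b at 0.26 (SE 0.06) and Sec24d at -0.46 (SE 0.11). Hsp90b1, the member with the most counts, was at 0.14 (SE 0.07, edgeR adjusted p = 0.16). With control replicate 1 left out 3 rose and 1 fell, with control replicate 2 left out 2 rose and 3 fell, and with control replicate 3 left out 4 rose and 4 fell. Leaving out p63KO replicate 1 gave 5 and 2, p63KO replicate 2 gave 4 and 4, and p63KO replicate 3 gave 4 and 2.

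Markers of some other cell types moved beside the genes that rose. For the counts below, 15.3% of all tested genes were called higher and 14.3% lower. All 13 tested neuroendocrine markers of 15 listed rose, and their summed level was 3.73 to 8.86 CPM in control and 497.3 to 635.4 CPM in p63KO. In the control libraries, Neurod1, Scg2 and Pax4 had 0 or 1 count. Neurog3 and Neurod1, among others, passed the filter on low counts only through their p63KO libraries. Of 6 tested markers of ciliated cells (19 listed), Tekt2 and Tppp3 rose and 4 did not pass. Without control replicate 2, 1 fell, and without p63KO replicate 3, 3 rose. The summed level of the list was 24.0 to 40.4 CPM in control and 54.0 to 74.7 CPM in p63KO. Foxj1, the ciliated cell regulator, was at -0.87 (SE 0.30) with overlapping groups and did not pass (edgeR adjusted p = 0.059). Tekt4 was at 0 throughout. Of 14 basal and squamous markers 11 fell, and the summed level was 3819 to 4618 CPM in control and 372.8 to 503.3 CPM in p63KO. Of 9 tested mesenchyme markers, Dcn and Twist1 rose and 4 fell (1 to 5 with 1 library left out), and Dcn went from 159.0 ± 49.1 to 1223 ± 151.3 CPM, so that the summed level was 576.9 to 698.5 CPM in control and 1393 to 1781 CPM in p63KO. None of 7 tested blood and endothelium markers passed (edgeR, 0 with an unadjusted p under 0.05), and without control replicate 3, 2 rose. Of 3 tested stomach and intestine markers (14 listed), Atp4a, a proton pump subunit of gastric parietal cells, rose (log2 fold change 1.23, SE 0.38, edgeR adjusted p = 0.039), and without control replicate 3, 2 rose, with a median of 1.52. No marker of that list was called without control replicate 1 or 2 or without p63KO replicate 1 or 2. Lung and trachea markers summed to 1.38 to 7.04 CPM in control and 3.19 to 8.76 CPM in p63KO, with Sftpa1 and Scgb1a1 at 0 in every library. The part of these cell types in the rise of the mucins and secretory regulators was not tested.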

How the data were processed

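Per the labels' protocols, PicoPure-purified RNA was made into Illumina TruSeq libraries and read for 100 bases. The authors deposited raw counts for each gene symbol, not normalized. The submitters' processing notes name TopHat2 2.1.0, bcl2fastq 1.8.4, DESeq2 and the build mm9, and no source used here names the counter, the annotation or the strand setting.

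The counts were fitted with edgeR 4.0.16 (R 4.3.3): filterByExpr (minimum count 10, minimum total 15) kept 13849 of 18572 genes with a count, libraries were TMM-scaled, and the groups were compared by the quasi-likelihood test with Benjamini-Hochberg adjustment over all tested genes. An adjusted p under 0.05 was called. SE is the log2 fold change over the square root of F. Libraries within a group differed by more than sampling noise (chi-square per degree of freedom 7.87 to 16.1). Alternatives were RLE and upper-quartile scaling, DESeq2 1.42.0, limma-voom (limma 3.58.1), 2 other filters, robust dispersions, a replicate block, stricter thresholds and each library left out. List counts with a library left out, and levels per kilobase, were added after seeing the data.

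The genes, lists and tests were chosen with earlier results of these data known. Besides the 10 genes, named genes were the 3 called genes with the lowest p and the most abundant gene of each related list and the most abundant gene of each marker list; other genes were named after their values were seen. Promoter windows came from RefSeq, build GRCm38, which is not the build of the counts.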

Additional observations from a re-analysis of the deposited data

How the results depend on the processing

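Muc1, Muc4, Muc5ac, Muc5b, Tspan1 and Spdef stayed higher in p63KO and past the threshold in each of 15 refits, with a largest adjusted p of 0.013 (Muc4, edgeR with robust dispersions). Foxa3 stayed higher in all 15 and ranged from 2.40 to 5.86 on the log2 scale, with the lost calls given beside its values. Creb3l1 stayed lower in all 15 refits (-0.92 to -0.40) and Agr2 stayed higher, not past the threshold, in the 14 that tested it. With 1 library left out, 6 or 7 of the genes were called higher, 0 or 1 lower (1 without control replicate 2, Creb3l1) and 3150 to 3771 of all genes were called. Over all genes, 4098 were called, 2580 of them at an adjusted p under 0.01 and 1612 at 2-fold or more. With the replicate number as a block, 7 genes were called higher, 1 was called lower (Creb3l1, log2 fold change -0.68, edgeR adjusted p = 0.011), and 4778 of all genes were called. The same-numbered libraries' deviations from their group means correlated at 0.17, 0.26 and 0.03 (Pearson r across genes). Control replicate 3 correlated best with another number, and no label says what a number marks, so the numbers were not taken as pairs. Without any block, no gene of the list was called lower in the edgeR fit on all 6 libraries, where Creb3l1 had an unadjusted p of 0.045. Depth sets a floor of 3 counts, or 0.153 to 0.223 CPM. Agr2 lay under it in control replicate 2 (2 counts). Muc5b (1 count) and Foxa3 (0 counts) lay under it in control replicate 1, and both were at 3 counts in control replicate 2. The fold changes of Muc5b and Foxa3 were thus set partly against controls at or under the floor. No measured gene was left untested, so no count ratio of an untested member was needed.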
